A study of Mus musculus with 16 samples.

Results

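The 35 genes described here code for glucose and lactate transporters, the enzymes and regulators of glycolysis, and genes known to be induced when oxygen is low. They were taken from a given list of symbols and matched to the NCBI Gene IDs of the deposited count files. All 35 were found among 36528 Gene IDs, and all 35 passed the filter on low counts together with 18072 genes in all. By role they fell into 3 transporters, 16 glycolytic enzymes, 3 regulators of glycolysis, 3 collagen-modifying enzymes, 2 secreted factors, 4 genes of oxygen sensing and its feedback, and 4 stress response genes.

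Glycolysis splits glucose into pyruvate in the cytosol and yields energy without oxygen, and many tumours and dividing cells use it heavily even where oxygen is present. When oxygen falls, the prolyl hydroxylases of the Egln family no longer mark the HIF alpha subunits for destruction, and the HIF complex then raises transcription of glucose transporters, glycolytic enzymes, Vegfa and its own inhibitors. Many of these targets carry the HIF core letters near their start sites.

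RNA was sequenced from cells sorted by GFP from mouse intestinal tumours of genotypes named AKVPSL and AKVPL. The sample titles call the tumours AKVPSL derived or AKVPL derived, which does not give the genotype of every cell in them. The design text names the sorted populations Lgr5+ and Lgr5-, after a receptor gene known as a marker of intestinal stem cells. The 4 groups were AKVPSL GFP+, AKVPSL GFP-, AKVPL GFP+ and AKVPL GFP- cells, with 4 libraries each. The names differ by the letter S, and what each letter stands for, the alleles, the promoter behind any Cre or reporter, the age of the mice, other gating and any pooling of animals were not stated. Sample titles name the colon, but the tissue field does so only for AKVPSL GFP- replicate 1 and names the small intestine for the other 15 libraries.

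The libraries held 10.88 M to 41.60 M counts each (M, 1e6 counts). Lgr5 stood at 253 to 284 CPM (counts per 1e6, TMM-scaled) in AKVPSL GFP+ libraries, 48.3 to 89.7 CPM in AKVPSL GFP-, 247 to 345 CPM in AKVPL GFP+ and 57.6 to 74.6 CPM in AKVPL GFP-. All 20 epithelial markers were detected in every group, with summed levels of 10987 to 16059 CPM per library. Markers of other cells were present too and are given beside the results.

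The RefSeq promoter table (GRCm38.p6) held a window for 32 of the 35 genes, in 48 windows, and the 250 bases before each start were searched for the HIF core letters ACGTG and for GCGTG, on both strands, with overlapping matches counted. The windows of P4ha1, Ero1a and Slc2a1, which fell with the GFP sort, of Egln1, which had the largest rise between the genotypes, and of Ldha, which changed in both ways, are shown 5′ to 3′ along the strand of the gene, with matches on either strand in capitals.
P4ha1, chr10:59323046-59323295, plus strand: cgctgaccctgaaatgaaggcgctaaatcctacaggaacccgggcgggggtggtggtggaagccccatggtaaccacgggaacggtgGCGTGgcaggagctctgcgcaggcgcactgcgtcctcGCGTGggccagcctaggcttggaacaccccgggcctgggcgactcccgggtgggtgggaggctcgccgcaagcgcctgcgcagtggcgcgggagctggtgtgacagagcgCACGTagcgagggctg
Ero1a, chr14:45318573-45318822, minus strand: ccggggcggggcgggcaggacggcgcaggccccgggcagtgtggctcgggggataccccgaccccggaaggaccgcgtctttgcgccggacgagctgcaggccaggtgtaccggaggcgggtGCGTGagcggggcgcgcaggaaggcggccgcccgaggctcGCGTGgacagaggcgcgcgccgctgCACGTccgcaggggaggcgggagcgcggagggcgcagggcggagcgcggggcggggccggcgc
Slc2a1, chr4:119108495-119108744, plus strand: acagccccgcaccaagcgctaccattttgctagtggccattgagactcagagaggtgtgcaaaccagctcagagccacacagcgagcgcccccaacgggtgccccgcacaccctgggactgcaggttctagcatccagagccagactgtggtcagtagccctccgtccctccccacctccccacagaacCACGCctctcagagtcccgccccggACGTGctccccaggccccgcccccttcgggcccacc
Egln1, chr8:124949255-124949504, minus strand: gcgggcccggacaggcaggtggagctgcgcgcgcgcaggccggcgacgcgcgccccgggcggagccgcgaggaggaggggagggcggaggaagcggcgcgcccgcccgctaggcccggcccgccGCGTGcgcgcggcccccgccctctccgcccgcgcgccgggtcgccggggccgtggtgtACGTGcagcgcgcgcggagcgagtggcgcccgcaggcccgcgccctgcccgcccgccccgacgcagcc
Ldha, chr7:46845554-46845803, plus strand: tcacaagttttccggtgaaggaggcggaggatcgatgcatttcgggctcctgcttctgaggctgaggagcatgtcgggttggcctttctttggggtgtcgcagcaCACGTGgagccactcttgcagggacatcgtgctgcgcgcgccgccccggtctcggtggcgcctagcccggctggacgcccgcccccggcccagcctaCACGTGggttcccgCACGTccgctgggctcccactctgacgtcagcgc
The window of P4ha1 held 3 matches, that of Ero1a 3, that of Slc2a1 2 and that of Egln1 2. The Ldha window shown held 5, where each CACGTG reads as ACGTG on both strands. A second Ldha window, chr7:46846832-46847081, held 1 match and is not shown. A match in any window was found for 29 of the 32 genes (90.6%), beside 57.0% of tested genes and 41.5% of all genes with a window. Per window the share was 77.1% of 48 against 38.6% of 32851, and the median GC content of the members' windows was 61.0%, beside 58.4% for tested genes and 52.4% for all. Eno2, Gpi1 and Tpi1 had no match. A match is a description of these letters only.

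Read per length, as the authors' deposited RPKM, the 35 genes spanned a wide range in every group. Aldoa, the aldolase of the main glycolytic route, averaged 479 RPKM in AKVPSL GFP+, 692 RPKM in AKVPSL GFP-, 425 RPKM in AKVPL GFP+ and 654 RPKM in AKVPL GFP- cells. Tpi1, Ldha and Pkm, which code for triosephosphate isomerase, lactate dehydrogenase A and pyruvate kinase, averaged 184 to 487 RPKM in the 4 groups. At the other end Slc2a3, a high-affinity glucose transporter, averaged 0.10, 0.59, 0.20 and 1.18 RPKM in the same order of groups. Plod2, a lysyl hydroxylase of collagen, averaged 0.24, 1.35, 1.18 and 4.24 RPKM.

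Gapdh averaged 6.39 RPKM in AKVPSL GFP+, 10.1 RPKM in AKVPSL GFP-, 4.72 RPKM in AKVPL GFP+ and 6.51 RPKM in AKVPL GFP- cells. The counts hold uniquely aligned reads, per the file headers, and 82.5% of the 50-base stretches of the Gapdh transcript in GENCODE M21 also occur in other genes, 215 of them pseudogenes. The shared part was 72.2% for Eno1, 68.0% for Pgk1, 62.4% for Bnip3, 41.5% for Pgam1, 34.4% for Pkm and 25.3% for Gpi1, so the levels of these genes are uncertain. It was between 11.4% and 17.1% for Pfkp, Ldha, Ndrg1, Aldoa and Ankrd37. Exons of Ankrd37, Bnip3 and Gpi1 overlap a gene on the opposite strand over 26.4%, 22.3% and 11.5% of their bases, and those of Pkm and Pfkm overlap one on the same strand over 15.3% and 10.2%. No source used here says whether the counting used strand, so reads of such partners cannot be told apart.

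**Figure D1:**
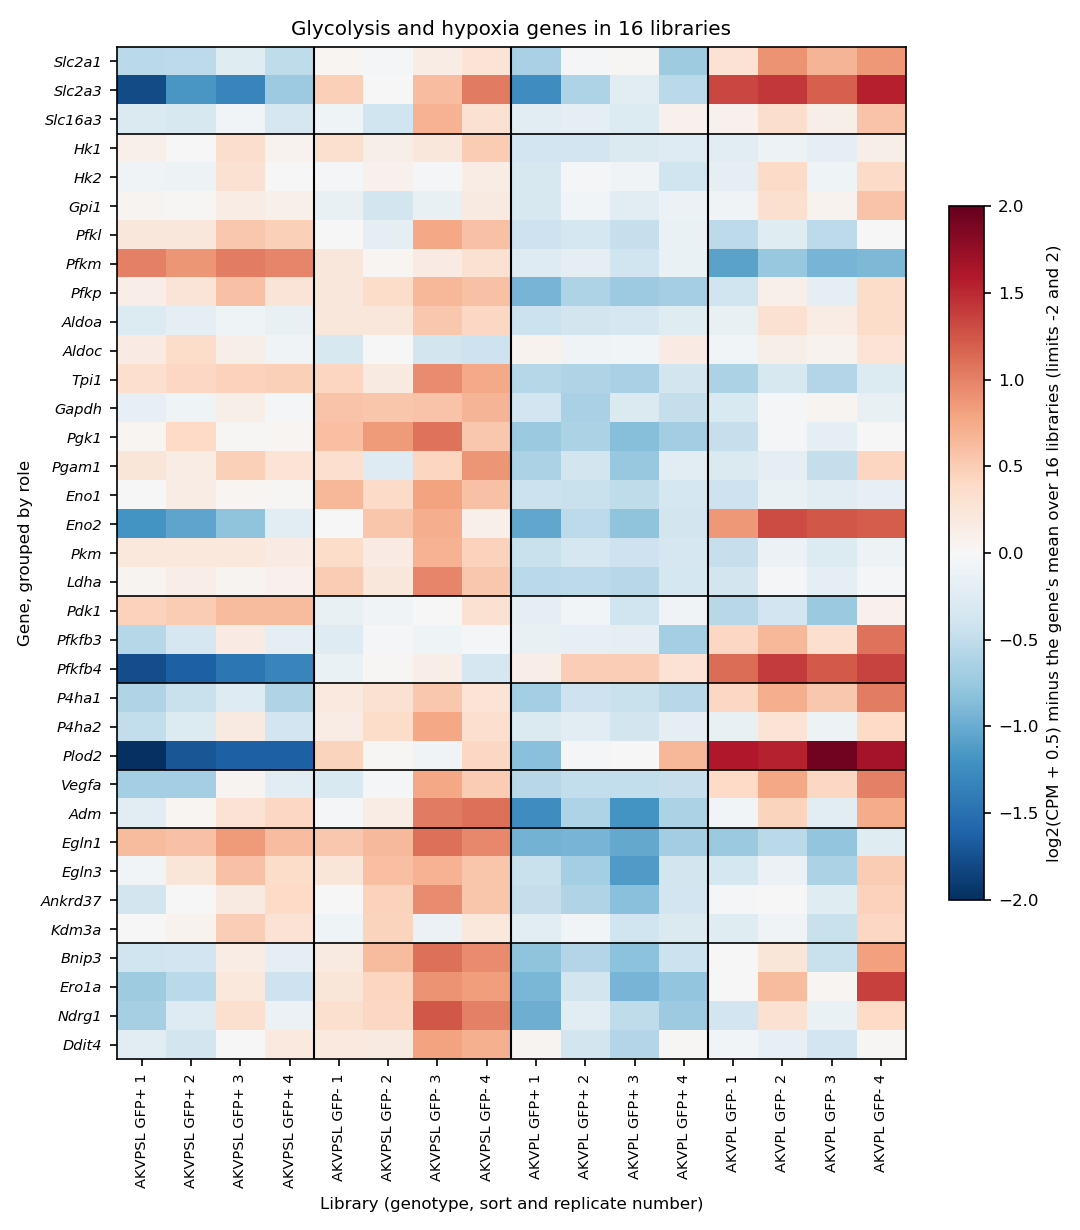
Level of each of the 35 genes (rows, grouped by role) in the 16 libraries (columns), as log2(CPM + 0.5) minus the gene's mean over all libraries, with colours limited at -2 and 2. Pfkfb4 and Plod2 are lowest in the 4 AKVPSL GFP+ libraries and highest in the 4 AKVPL GFP- libraries, while Pfkm runs the other way.

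In both genotypes many more of the 35 genes fell than rose in GFP+ cells. In AKVPSL tumours 17 members fell and 3 rose in GFP+ cells, by edgeR's quasi-likelihood test (Benjamini-Hochberg adjusted p below 0.05 over all genes tested). Of all genes tested, 24.6% fell and 22.4% rose in that comparison, 47.0% in all. In AKVPL tumours 20 members fell and 1 rose, while 16.5% of all genes fell and 22.6% rose, 39.1% in all. The median log2 fold change of the 35 genes was -0.51 in AKVPSL and -0.44 in AKVPL, beside -0.01 and 0.14 over all genes. The 14 that fell in both genotypes (14 of 17 and 14 of 20) were Slc2a1, Slc2a3, Aldoa, Gapdh, Pgk1, Eno2, Ldha, Pfkfb4, P4ha1, Plod2, Vegfa, Bnip3, Ero1a and Ndrg1, and the muscle-type phosphofructokinase Pfkm rose in both. By DESeq2, 26 members fell in AKVPL, with Slc16a3, Hk1, Eno1, P4ha2, Egln1 and Egln3 in addition. DESeq2 moved the median of all genes by -0.10 there, and the share of all genes that fell by DESeq2 was not counted.

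All 17 genes that fell in AKVPSL were lower in the GFP+ library than in the GFP- library of the same number in 4 of 4 pairs. In AKVPL this held for 19 of 20, with Hk2 lower in 3 pairs. These genes were called from the same libraries, so the pair counts describe the calls and are no separate test. Every GFP+ library lay below every GFP- library for 13 members in AKVPSL (19.6% of all genes) and for 17 members in AKVPL (16.5% of all genes). In sorted bulk cells, fewer cells of a type and less RNA per cell cannot be told apart.

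**Figure D2:**
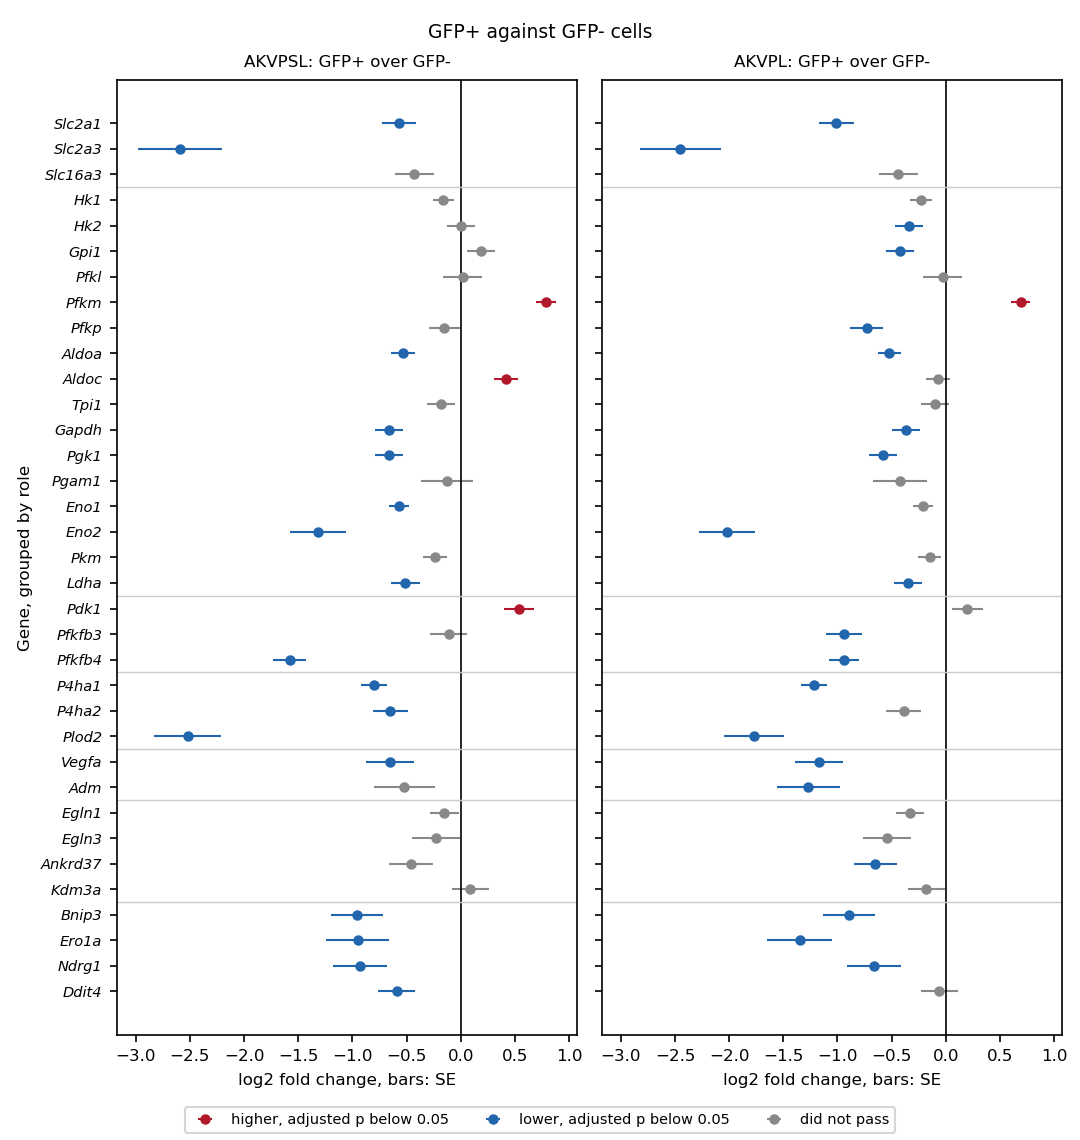
Log2 fold change of GFP+ over GFP- cells (horizontal axis, bars SE) for each gene (vertical axis, grouped by role) in AKVPSL tumours, left, and AKVPL tumours, right, with colours for the edgeR call. Most points lie left of 0, and Pfkm lies at 0.79 in AKVPSL and 0.69 in AKVPL.

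Both glucose transporters of the list were lower in GFP+ cells. Slc2a3 (Gene ID 20527, GRCm38 chromosome 6, 122727809 to 122802363) stood at 0.173, 0.536, 0.433 and 0.904 CPM in AKVPSL GFP+ libraries 1 to 4, against 2.75, 1.81, 3.06 and 4.27 CPM in AKVPSL GFP- libraries. It stood at 0.488, 1.02, 1.48 and 1.11 CPM in AKVPL GFP+ libraries, against 5.35, 5.73, 4.83 and 6.35 CPM in AKVPL GFP- libraries. No GFP+ library reached its GFP- group in either genotype. The log2 fold change was -2.59 ± 0.39 (SE) in AKVPSL (edgeR adjusted p = 5.88e-05) and -2.45 ± 0.37 in AKVPL (adjusted p = 5.60e-05). Slc2a1, the main glucose transporter of epithelial cells, averaged 347 ± 35.7 CPM in AKVPSL GFP+ and 513 ± 45.4 CPM in AKVPSL GFP- cells, and 383 ± 103 CPM in AKVPL GFP+ and 771 ± 140 CPM in AKVPL GFP- cells (SD, n = 4 each). Slc16a3, which exports lactate, had log2 fold changes of -0.43 ± 0.18 and -0.44 ± 0.18 that did not pass (edgeR adjusted p = 0.0541 and 0.0588), but passed with the replicate number as a block (-0.38, adjusted p = 0.0188, and -0.44, adjusted p = 0.0110).

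Of the 16 glycolytic enzymes 6 fell and 2 rose in AKVPSL GFP+ cells, beside 24.6% and 22.4% of all genes, and 8 fell and 1 rose in AKVPL GFP+ cells, beside 16.5% and 22.6%. Eno2, the neuronal-type enolase (Gene ID 13807, chromosome 6, 124760053 to 124769673), had 1.66, 1.87, 2.33 and 3.74 CPM in AKVPSL GFP+ libraries, against 4.49, 6.77, 7.71 and 4.80 CPM in AKVPSL GFP- libraries. In AKVPL it had 1.90, 2.94, 2.34 and 3.32 CPM in GFP+ libraries, against 8.53, 11.7, 11.2 and 11.0 CPM in GFP- libraries. The groups did not overlap, and the log2 fold change was -1.32 ± 0.26 in AKVPSL (edgeR adjusted p = 0.00051) and -2.02 ± 0.26 in AKVPL (adjusted p = 1.13e-05). Aldoa, which averaged 1019 ± 56.6 CPM in AKVPSL GFP+ and 1467 ± 157 CPM in AKVPSL GFP- cells (SD, n = 4), fell by 0.53 ± 0.11 on the log2 scale there and by 0.52 ± 0.11 in AKVPL. The phosphoglycerate kinase Pgk1 fell by 0.66 ± 0.13 in AKVPSL and by 0.58 ± 0.13 in AKVPL. Eno1, the common enolase, fell by 0.57 ± 0.09 in AKVPSL, and in AKVPL its log2 fold change was -0.21 ± 0.09 (edgeR adjusted p = 0.0811). Eno1 passed in AKVPL by DESeq2 (-0.31, adjusted p = 0.00544) and in 6 further alternatives, from -0.61 with epithelial scaling (adjusted p = 6.31e-05) to -0.28 with library totals (adjusted p = 0.0218). Pfkp, the platelet-type phosphofructokinase, fell by 0.73 ± 0.15 in AKVPL, beside -0.15 ± 0.14 in AKVPSL (adjusted p = 0.402).

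Pfkm was higher in GFP+ cells. This gene (Gene ID 18642, chromosome 15, 98092589 to 98132447) had 80.5, 73.4, 80.5 and 78.2 CPM in AKVPSL GFP+ libraries, against 46.6, 40.5, 44.2 and 48.9 CPM in AKVPSL GFP- libraries. It had 33.0, 34.9, 30.0 and 36.2 CPM in AKVPL GFP+ libraries, against 18.6, 23.1, 20.5 and 21.1 CPM in AKVPL GFP- libraries. Each GFP+ group lay wholly above its GFP- group. Pfkm rose by 0.79 ± 0.09 on the log2 scale in AKVPSL (edgeR adjusted p = 4.20e-06) and by 0.69 ± 0.09 in AKVPL (adjusted p = 1.90e-05). Aldoc, the brain-type aldolase, rose in AKVPSL GFP+ cells by 0.42 ± 0.11 (adjusted p = 0.00481), and Pdk1, the kinase that holds pyruvate back from the mitochondrial pyruvate dehydrogenase, rose there by 0.54 ± 0.14 (adjusted p = 0.00513). Their AKVPL values were -0.07 ± 0.11 and 0.20 ± 0.14, and neither passed (adjusted p = 0.654 and 0.294). Without AKVPL GFP- replicate 4, Pdk1 passed in AKVPL as well, at 0.39 (adjusted p = 0.0174), and without AKVPSL GFP- replicate 4 the Aldoc call ended, at 0.29 (adjusted p = 0.0602).

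The genes of the enzymes that make and break fructose 2,6-bisphosphate, the activator of phosphofructokinase, were both lower in AKVPL GFP+ cells. Pfkfb4 (Gene ID 270198, chromosome 9, 108988272 to 109032236) had 3.34, 3.75, 4.33 and 4.77 CPM in AKVPSL GFP+ libraries, against 11.5, 12.9, 14.0 and 9.92 CPM in AKVPSL GFP- libraries. In AKVPL it had 13.9, 18.0, 18.1 and 15.7 CPM in GFP+ libraries, against 28.1, 34.3, 30.4 and 33.1 CPM in GFP- libraries. The GFP+ and GFP- libraries did not overlap in either genotype, with log2 fold changes of -1.58 ± 0.15 in AKVPSL (edgeR adjusted p = 5.64e-07) and -0.94 ± 0.14 in AKVPL (adjusted p = 4.30e-05). Pfkfb3 (Gene ID 170768, chromosome 2, 11471430 to 11554071) had 83.0, 98.0, 138 and 108 CPM in AKVPSL GFP+ libraries, against 103, 121, 116 and 121 CPM in AKVPSL GFP- libraries. These AKVPSL groups overlapped (log2 fold change -0.11 ± 0.17, adjusted p = 0.611). In AKVPL, Pfkfb3 had 111, 110.1, 107 and 76.8 CPM in GFP+ libraries, against 164, 195, 156 and 262 CPM in GFP- libraries, a log2 fold change of -0.94 ± 0.17 without overlap (adjusted p = 0.000316).

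All 3 collagen-modifying genes fell in AKVPSL GFP+ cells, where 24.6% of all genes fell. P4ha1 and Plod2 also fell in AKVPL GFP+ cells, where 16.5% of all genes fell. Plod2 (Gene ID 26432, chromosome 9, 92539636 to 92608428) had 0.495, 1.07, 1.17 and 1.15 CPM in AKVPSL GFP+ libraries, against 6.49, 4.72, 4.39 and 6.33 CPM in AKVPSL GFP- libraries. It had 2.38, 4.54, 4.65 and 7.64 CPM in AKVPL GFP+ libraries, against 15.2, 14.5, 19.2 and 15.7 CPM in AKVPL GFP- libraries. With no overlap in either genotype, its log2 fold change was -2.52 ± 0.31 in AKVPSL (edgeR adjusted p = 9.60e-06) and -1.77 ± 0.28 in AKVPL (adjusted p = 9.80e-05). P4ha1, a catalytic subunit of the prolyl hydroxylase of collagen, fell by 0.80 ± 0.12 in AKVPSL and by 1.22 ± 0.12 in AKVPL. The second such subunit, P4ha2, fell by 0.65 ± 0.16 in AKVPSL. Its value of -0.39 ± 0.16 in AKVPL did not pass (adjusted p = 0.0542), but did with the replicate number as a block (-0.37, adjusted p = 0.00430).

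Of the secreted factors, Vegfa, the main growth factor of blood vessels, had 245, 244, 408 and 340.3 CPM in AKVPSL GFP+ libraries, against 318, 389.6, 672 and 563 CPM in AKVPSL GFP- libraries. In AKVPL it had 268, 279, 280.5 and 285 CPM in GFP+ libraries, against 517, 671, 525 and 796 CPM in GFP- libraries. The AKVPSL groups overlapped and the AKVPL groups did not. Vegfa fell by 1.17 ± 0.22 on the log2 scale in AKVPL (edgeR adjusted p = 0.000525) and by 0.65 ± 0.22 in AKVPSL (adjusted p = 0.0214), and the AKVPSL call ended without AKVPSL GFP+ replicate 2 or AKVPSL GFP- replicate 3 (values from -0.55 to -0.45). Adm, which codes for the vasodilator adrenomedullin, fell by 1.27 ± 0.29 in AKVPL, beside -0.52 ± 0.28 in AKVPSL (adjusted p = 0.136, and -0.45 with adjusted p = 0.0213 with the replicate number as a block).

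Among the stress response genes, all 4 fell in AKVPSL, beside 24.6% of all genes, and 3 fell in AKVPL, beside 16.5%. Ero1a, an oxidase of protein folding in the endoplasmic reticulum (Gene ID 50527, chromosome 14, 45283087 to 45318572), had 84.6, 96.2, 162 and 105 CPM in AKVPSL GFP+ libraries, against 165, 187, 261 and 248 CPM in AKVPSL GFP- libraries. In AKVPL it had 73.8, 108, 73.3 and 80.6 CPM in GFP+ libraries, against 138, 216, 144 and 361 CPM in GFP- libraries. The groups were apart in both genotypes, and the log2 fold change was -0.95 ± 0.29 in AKVPSL (edgeR adjusted p = 0.0165) and -1.35 ± 0.30 in AKVPL (adjusted p = 0.00247). The AKVPSL call for Ero1a ended without AKVPSL GFP- replicate 3 (-0.84, adjusted p = 0.0522). Bnip3, which acts in the removal of mitochondria, fell by 0.96 ± 0.24 in AKVPSL and by 0.89 ± 0.24 in AKVPL. Ndrg1 fell by 0.93 ± 0.25 in AKVPSL and by 0.66 ± 0.25 in AKVPL. Ddit4, an inhibitor of mTORC1 signalling, fell by 0.59 ± 0.17 in AKVPSL and had a log2 fold change of -0.06 ± 0.17 in AKVPL (adjusted p = 0.822).

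Of the 4 genes of oxygen sensing and its feedback, 0 passed in AKVPSL by edgeR, beside 47.0% of all genes. In AKVPL 1 fell, beside 16.5% of all genes. In AKVPSL 1 was lower at an unadjusted p below 0.05, and 1 fell by DESeq2. Ankrd37, a hypoxia-induced gene of the ankyrin repeat family, fell in AKVPL by 0.65 ± 0.20 (edgeR adjusted p = 0.0160). The prolyl hydroxylase genes Egln1 and Egln3 had log2 fold changes of -0.15 ± 0.13 and -0.23 ± 0.22 in AKVPSL and of -0.33 ± 0.13 and -0.54 ± 0.22 in AKVPL, none of which passed by edgeR. Both passed in AKVPL by DESeq2, at -0.43 (adjusted p = 0.0127) and -0.64 (adjusted p = 0.0121), and with library totals, at -0.41 (adjusted p = 0.0249) and -0.62 (adjusted p = 0.0438). With the replicate number as a block both passed in AKVPL, at -0.32 (adjusted p = 0.0117) and -0.51 (adjusted p = 0.00241), and Ankrd37 passed in AKVPSL at -0.45 (adjusted p = 0.00455). Kdm3a, a histone demethylase, had values of 0.09 ± 0.17 in AKVPSL and -0.18 ± 0.17 in AKVPL.

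With each library left out in turn, 17 of the 20 calls in AKVPSL and 15 of the 21 calls in AKVPL held every time. The AKVPL calls that ended were those of Hk2, Gpi1, Gapdh, Ldha, Ankrd37 and Ndrg1, whose adjusted p lay between 0.0147 and 0.0487 (edgeR). The Ndrg1 call also ended without a filter on low counts (-0.74, adjusted p = 0.0634). Ankrd37 ended without AKVPL GFP- replicate 4 (-0.49), and Gpi1 without that library or AKVPL GFP+ replicate 1 (-0.37 to -0.29). Gapdh ended without AKVPL GFP+ replicate 1, 2 or 4 or AKVPL GFP- replicate 2 or 3 (-0.39 to -0.29). The Ldha call ended without AKVPL GFP+ replicate 1, 2 or 3 or AKVPL GFP- replicate 2, 3 or 4 (-0.36 to -0.30). Hk2, one of the hexokinases that trap glucose, and Ndrg1 each lost the call without any 1 of 8 libraries, at -0.34 to -0.25 and at -0.72 to -0.54. For Hk2 these were AKVPSL GFP+ replicates 2 and 4, AKVPSL GFP- replicates 2 and 3, AKVPL GFP+ replicates 1 and 4 and AKVPL GFP- replicates 2 and 4. For Ndrg1 they were AKVPSL GFP+ replicates 2 and 4, AKVPL GFP+ replicates 1, 3 and 4 and AKVPL GFP- replicates 2, 3 and 4.

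Markers of other cells moved with the sort. The 12 fibroblast markers summed to 191 to 988 CPM in AKVPSL GFP+ libraries, against 1298 to 2658 CPM in AKVPSL GFP-, and to 610 to 1176 CPM in AKVPL GFP+, against 4078 to 8845 CPM in AKVPL GFP-. All 12 fell in AKVPSL GFP+ cells and 10 of 12 fell in AKVPL GFP+ cells. The 16 leukocyte markers summed to 115 to 371 CPM in AKVPSL GFP+, against 834 to 3418 CPM in AKVPSL GFP-, and to 503 to 1280 CPM in AKVPL GFP+, against 4044 to 7334 CPM in AKVPL GFP-, with Cd3g at 0 in every group other than AKVPL GFP+. Of 15 tested, 14 fell in AKVPSL and 13 in AKVPL. The 10 endothelial markers summed to 113 to 158 CPM in AKVPSL GFP+, against 136 to 474 CPM in AKVPSL GFP-, and to 81.6 to 122 CPM in AKVPL GFP+, against 433 to 790 CPM in AKVPL GFP-, with 9 lower and 1 higher in AKVPSL and all 10 lower in AKVPL. The 8 proliferation markers summed to 655 to 890 CPM in AKVPSL GFP+, against 354 to 587 CPM in AKVPSL GFP-, and to 569 to 794 CPM in AKVPL GFP+, against 221 to 284 CPM in AKVPL GFP-, and 5 and 8 of them rose.

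The part of these cells in the members' differences was not tested. Libraries were also scaled by the 20 epithelial markers, which leaves RNA of other cells in the members' counts and so cannot measure that part. Of these markers 4 rose and 6 fell in AKVPSL GFP+ cells and 12 rose in AKVPL GFP+ cells. Then 17 members fell and 3 rose in AKVPSL, and 31 fell and 1 rose in AKVPL. In AKVPL that scaling moved the median of all genes by -0.40, to -0.27, and put the members at -0.85. The shares of all genes called with this scaling were not counted, and the shares given above are from TMM scaling. The 7 mast cell markers summed to 2.97 to 9.04 CPM in AKVPSL GFP+, against 30.1 to 137 CPM in AKVPSL GFP-, and to 64.7 to 78.7 CPM in AKVPL GFP+, against 325 to 682 CPM in AKVPL GFP-, and 6 of them fell in each genotype. The 6 smooth muscle markers summed to 9.48 to 46.2 CPM in AKVPSL GFP+, against 100.1 to 166 CPM in AKVPSL GFP-, and to 23.0 to 39.5 CPM in AKVPL GFP+, against 179 to 514 CPM in AKVPL GFP-, and 5 and 6 of them fell. The 5 red blood cell markers summed to at most 35.1 CPM in any library, with Hba-a2 at 0 in AKVPSL GFP+.

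Between genotypes, more of the 16 listed glycolytic enzymes were higher than lower in AKVPSL tumour cells, while Pfkfb4 and Plod2 were lower in both sorts. The balance in GFP- cells depended on the scaling. In GFP+ cells 17 members rose and 3 fell in AKVPSL, by the edgeR test at an adjusted p below 0.05, while 24.9% of all genes rose and 28.1% fell, 53.0% in all. In GFP- cells 16 rose and 9 fell, while 32.0% of all genes rose and 30.7% fell, 62.7% in all. With libraries scaled by the epithelial markers instead, 8 rose and 11 fell in GFP- cells, and 20 rose and 2 fell in GFP+ cells. That scaling moved the median of all genes by -0.28 in GFP- and by 0.14 in GFP+ cells. Shares of all genes called were not counted for it. With TMM scaling the median log2 fold change of the members was 0.44 in GFP+ and 0.40 in GFP- cells, beside -0.05 and 0.00 over all genes. The 14 members that rose in both sorts (14 of 17 and 14 of 16) were Hk1, Pfkl, Pfkm, Pfkp, Tpi1, Gapdh, Pgk1, Eno1, Pkm, Ldha, Pdk1, Egln1, Egln3 and Ankrd37, and Slc2a3, Pfkfb4 and Plod2 fell in both. Of these, the GFP- calls of Pdk1 and Ankrd37 ended by DESeq2 (0.30, adjusted p = 0.0844, and 0.37, adjusted p = 0.109), with epithelial scaling (0.10 and 0.18), on log2(RPKM + 1) by limma, with library totals (0.28 and 0.35), with only the groups compared and with DESeq2 size factors, and that of Ankrd37 also without a filter on low counts. These comparisons share libraries with the sort comparisons, so values of the 2 kinds are given side by side only.

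**Figure D3:**
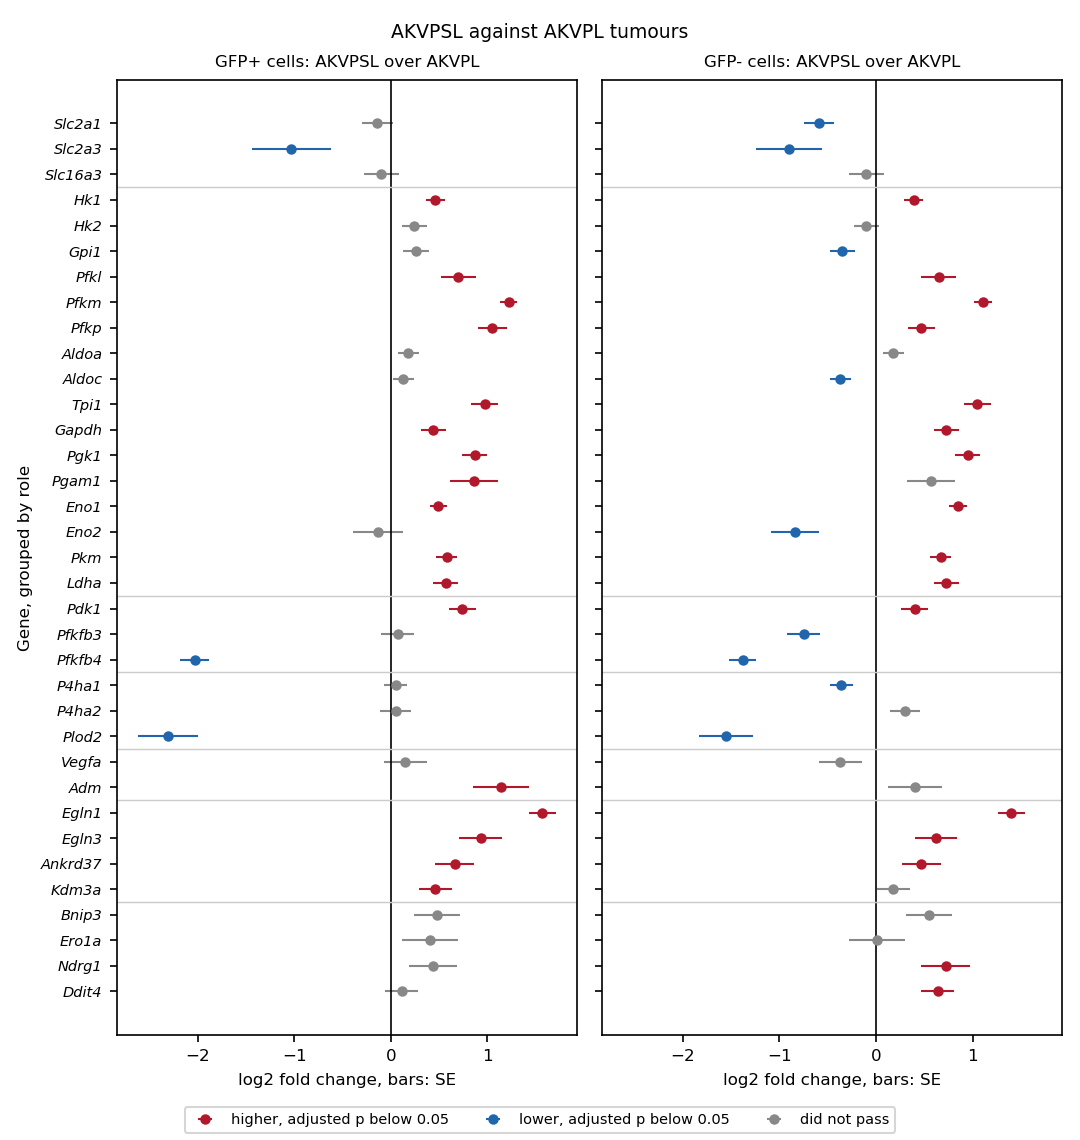
Log2 fold change of AKVPSL over AKVPL tumours (horizontal axis, bars SE) for each gene (vertical axis, grouped by role) in GFP+ cells, left, and GFP- cells, right, with colours for the edgeR call. Egln1 lies farthest right at 1.57 and 1.40, and Plod2 and Pfkfb4 lie farthest left.

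Every AKVPSL library lay above every AKVPL library for 19 members in GFP+ cells (25.0% of all genes) and for 9 in GFP- cells (27.3% of all genes). Of the 16 enzymes 11 rose and none fell in GFP+ cells, beside 24.9% and 28.1% of all genes, and 10 rose and 3 fell in GFP- cells, beside 32.0% and 30.7%. The count of enzymes that fell in GFP+ cells was also 0 at an unadjusted p below 0.05 in edgeR and by DESeq2. Pfkm, whose library values are given above, rose by 1.22 ± 0.09 in GFP+ (edgeR adjusted p = 2.76e-09) and by 1.11 ± 0.09 in GFP- cells (adjusted p = 1.21e-08), with all AKVPSL libraries above all AKVPL libraries of the same sort. Tpi1 had 708, 752, 776 and 786 CPM in AKVPSL GFP+ libraries, against 379, 372, 359 and 434 CPM in AKVPL GFP+ libraries. It had 755, 634, 1078 and 949.9 CPM in AKVPSL GFP- libraries, against 363, 449, 375 and 466 CPM in AKVPL GFP- libraries. Its log2 fold change was 0.97 ± 0.14 in GFP+ and 1.05 ± 0.14 in GFP- cells, without overlap in either.

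Of the genes of later steps, Pgk1, Eno1, Pkm and Ldha rose in both sorts. Pgk1 rose by 0.87 ± 0.13 in GFP+ and by 0.95 ± 0.13 in GFP- cells, and Pkm by 0.58 ± 0.11 and 0.67 ± 0.11. Ldha averaged 579 ± 16.4 CPM in AKVPSL GFP+ and 389.6 ± 25.9 CPM in AKVPL GFP+ cells, and 824 ± 186 CPM in AKVPSL GFP- and 496 ± 54.0 CPM in AKVPL GFP- cells (SD, n = 4 each). Its log2 fold change was 0.57 ± 0.13 in GFP+ (edgeR adjusted p = 0.00084) and 0.73 ± 0.13 in GFP- cells (adjusted p = 6.10e-05). Among the upper steps, the hexokinase Hk1 rose by 0.46 ± 0.10 and 0.39 ± 0.10, the liver-type phosphofructokinase Pfkl by 0.70 ± 0.18 and 0.65 ± 0.18, and Pfkp by 1.05 ± 0.15 and 0.47 ± 0.14. With epithelial scaling the GFP- calls of these 3 ended, at 0.10 for Hk1 (adjusted p = 0.453), 0.36 for Pfkl (adjusted p = 0.118) and 0.18 for Pfkp (adjusted p = 0.336). Hk2 did not pass in either sort (0.24 ± 0.13, adjusted p = 0.142, and -0.10 ± 0.13, adjusted p = 0.523), and neither did Aldoa (0.18 ± 0.11 in both). Pgam1, a phosphoglycerate mutase at 3.43 to 6.76 CPM on average in the 4 groups, rose in GFP+ cells by 0.86 ± 0.25, beside 0.57 ± 0.25 in GFP- cells (adjusted p = 0.0539).

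Of the 4 oxygen-sensing genes, all 4 rose in AKVPSL GFP+ cells, where 24.9% of all genes rose, and 3 rose in AKVPSL GFP- cells, where 32.0% of all genes rose. Of these 3, only Egln1 passed in GFP- cells with epithelial scaling or with library totals. Egln1, the main oxygen-sensing prolyl hydroxylase (Gene ID 112405, chromosome 8, 124908587 to 124949254), had 248, 241, 289 and 245 CPM in AKVPSL GFP+ libraries, against 83.2, 83.8, 78.4 and 98.5 CPM in AKVPL GFP+ libraries. It had 232, 251, 345 and 311 CPM in AKVPSL GFP- libraries, against 95.9, 109.8, 92.2 and 135 CPM in AKVPL GFP- libraries. The lowest AKVPSL library was above the highest AKVPL library in both sorts, and Egln1 rose by 1.57 ± 0.14 in GFP+ (edgeR adjusted p = 1.72e-08) and by 1.40 ± 0.14 in GFP- cells (adjusted p = 7.57e-08). Egln3 rose by 0.93 ± 0.22 and 0.62 ± 0.22, and Ankrd37 by 0.66 ± 0.20 and 0.47 ± 0.20. The GFP- call of Egln3 ended with epithelial scaling (0.32, adjusted p = 0.272) and with library totals (0.50, adjusted p = 0.0614). Kdm3a rose in GFP+ cells by 0.46 ± 0.17 (adjusted p = 0.0288), a call that ended with library totals (0.41, adjusted p = 0.0562). Of the secreted factors, Adm rose in GFP+ cells by 1.14 ± 0.29 (adjusted p = 0.00297). Vegfa had log2 fold changes of 0.15 ± 0.22 and -0.37 ± 0.22 that did not pass (adjusted p = 0.574 and 0.147), but the GFP- value passed by DESeq2 (-0.47, adjusted p = 0.0499) and with epithelial scaling (-0.66, adjusted p = 0.0191).

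Pfkfb4 and Plod2 ran against the enzymes. From the library values above, Pfkfb4 fell by 2.03 ± 0.15 in GFP+ (edgeR adjusted p = 1.60e-09) and by 1.38 ± 0.14 in GFP- cells (adjusted p = 1.27e-07), and Plod2 fell by 2.31 ± 0.31 in GFP+ (adjusted p = 5.75e-06) and by 1.55 ± 0.28 in GFP- cells (adjusted p = 0.000105). No AKVPSL library of either gene reached the AKVPL libraries of the same sort. Slc2a3 fell by 1.03 ± 0.41 in GFP+, where the groups overlapped (adjusted p = 0.0417), and by 0.90 ± 0.34 in GFP- cells (adjusted p = 0.0297). Its GFP+ call ended on log2(RPKM + 1) by limma (-0.13, adjusted p = 0.223), with epithelial scaling (-0.89, adjusted p = 0.0775) and with only the groups compared (-1.03, adjusted p = 0.0868). With a call in GFP- cells and none in GFP+ cells, Slc2a1 fell by 0.59 ± 0.16, Eno2 by 0.84 ± 0.25, Pfkfb3 by 0.75 ± 0.17, Aldoc by 0.37 ± 0.11, P4ha1 by 0.36 ± 0.12 and Gpi1 by 0.35 ± 0.13. There the stress genes Ndrg1 and Ddit4 rose, by 0.72 ± 0.25 and 0.64 ± 0.17, while Bnip3 (0.55 ± 0.24, adjusted p = 0.0521) and Ero1a (0.01 ± 0.29, adjusted p = 0.986) did not pass. The GFP- calls of Ndrg1 and Ddit4 ended with epithelial scaling (0.42 and 0.35), that of Ndrg1 also without a filter on low counts (0.68, adjusted p = 0.0537), and that of Gpi1 with only the groups compared (-0.37, adjusted p = 0.0522). A call in 1 sort alone does not show that the sorts differ. That difference has its own test, whose calls come next.

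With each library left out in turn, 18 of the 20 calls in GFP+ cells and 18 of the 25 in GFP- cells held every time. The Kdm3a call in GFP+ cells ended without AKVPSL GFP+ replicate 3 or 4 or AKVPL GFP+ replicate 3 or 4 (0.36 to 0.44). That of Slc2a3 in GFP+ cells ended without any 1 of 9 libraries, at -1.07 to -0.69, which were AKVPSL GFP+ replicates 1, 2 and 3, AKVPSL GFP- replicate 1, AKVPL GFP+ replicates 2, 3 and 4 and AKVPL GFP- replicates 1 and 2. In GFP- cells, Slc2a3 lost its call without AKVPSL GFP- replicate 1 or 2 or AKVPL GFP- replicate 2 or 4 (-0.88 to -0.72), and Gpi1 without any 1 of the same 4 (-0.32 to -0.22). P4ha1 lost its call without AKVPSL GFP- replicate 1 or 4 or AKVPL GFP- replicate 4 (-0.31 to -0.23). Egln3 (0.48 to 0.57) and Ndrg1 (0.54 to 0.65) lost theirs without AKVPSL GFP- replicate 3 or AKVPL GFP- replicate 1 or 3, and Pdk1 (0.29 to 0.34) without AKVPSL GFP- replicate 4 or AKVPL GFP- replicate 1 or 3. Ankrd37 in GFP- cells, with an edgeR adjusted p of 0.0466, lost its call without any 1 of 10 libraries (0.30 to 0.50), which were AKVPSL GFP+ replicates 2 and 3, AKVPSL GFP- replicates 2, 3 and 4, AKVPL GFP+ replicates 1 and 2 and AKVPL GFP- replicates 1, 2 and 3.

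Markers of other cells differed between the genotypes in GFP- cells, as the sums above show: 10 of 12 fibroblast, 6 of 15 leukocyte, 5 of 10 endothelial, 6 of 7 mast cell and 6 of 6 smooth muscle markers fell in AKVPSL, and 1 of 10 endothelial and 8 of 8 proliferation markers rose. In GFP+ cells 2 of 12 fibroblast, 9 of 15 leukocyte, 3 of 10 endothelial, 2 of 7 mast cell, 1 of 6 smooth muscle and 1 of 8 proliferation markers fell, and 2 of 10 endothelial and 1 of 8 proliferation markers rose. The part of these differences in the members' values was not tested. The 20 epithelial markers themselves differed between genotypes, with 11 higher and 2 lower in AKVPSL GFP- cells and 4 higher and 7 lower in AKVPSL GFP+ cells. Scaling by them shifted the all-gene median by -0.28 in GFP- and by 0.14 in GFP+ cells. The members' median was then 0.10 in GFP- and 0.58 in GFP+ cells. The 8 that still rose in GFP- cells were Pfkm, Tpi1, Gapdh, Pgk1, Eno1, Pkm, Ldha and Egln1, from 0.38 for Pkm to 1.10 for Egln1.

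The difference between the sort effects of the genotypes was called for 4 of the 35 genes, higher for 3 and lower for 1, beside 7.02% higher and 13.7% lower over all genes, 20.8% in all. Gpi1, the glucose-6-phosphate isomerase (Gene ID 14751, chromosome 7, 34201327 to 34230336), had 205, 200.2, 219 and 210.1 CPM in AKVPSL GFP+ libraries, against 178, 153, 177 and 223 CPM in AKVPSL GFP- libraries. It had 158, 188, 169.8 and 181 CPM in AKVPL GFP+ libraries, against 187, 246, 206 and 291 CPM in AKVPL GFP- libraries. The GFP+ group was mostly the higher one in AKVPSL and mostly the lower one in AKVPL. Its log2 fold change was 0.19 ± 0.13 in AKVPSL and -0.42 ± 0.13 in AKVPL, and the difference of 0.61 ± 0.18 passed (edgeR adjusted p = 0.0229).

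Aldoc (Gene ID 11676, chromosome 11, 78323073 to 78327781) had 80.6, 93.2, 78.0 and 68.7 CPM in AKVPSL GFP+ libraries, against 57.3, 72.5, 55.8 and 53.7 CPM in AKVPSL GFP- libraries. In AKVPL it had 75.5, 68.4, 69.0 and 80.9 CPM in GFP+ libraries, against 68.8, 77.6, 75.1 and 86.9 CPM in GFP- libraries. All 4 groups overlapped in part, and the sort effects differed by 0.49 ± 0.16 (edgeR adjusted p = 0.0347). The Pfkfb3 sort effects differed by 0.83 ± 0.24 (edgeR adjusted p = 0.0209), and its GFP+ and GFP- libraries overlapped in AKVPSL and did not in AKVPL. For Pfkfb4 the sort effect was the larger one in AKVPSL, and the difference was -0.64 ± 0.20 (adjusted p = 0.0294).

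The Pfkfb3 difference was called without each of the 16 libraries in turn and under every alternative run. The Pfkfb4 call ended with DESeq2 size factors (-0.55, adjusted p = 0.0629), without a filter on low counts (-0.57, adjusted p = 0.0737), with epithelial scaling (-0.22, adjusted p = 0.452) and on log2(RPKM + 1) by limma (-0.01, adjusted p = 0.977). It also ended without AKVPSL GFP+ replicate 1 or 2, AKVPSL GFP- replicate 3, AKVPL GFP+ replicate 2 or 3 or AKVPL GFP- replicate 1 (-0.61 to -0.56). The Gpi1 call ended without AKVPL GFP+ replicate 1 or AKVPL GFP- replicate 4 (0.48 to 0.56). The Aldoc call ended without any 1 of 10 libraries (0.41 to 0.50), all but AKVPSL GFP+ replicates 3 and 4, AKVPSL GFP- replicate 2, AKVPL GFP+ replicate 4 and AKVPL GFP- replicates 1 and 3. With the replicate number as a block, which pairs the sorts of a genotype, 7 members were higher and 2 lower. Of these, Pfkp (0.55, edgeR adjusted p = 0.0106), Adm (0.79), Vegfa (0.53), P4ha1 (0.40) and, lower, Ddit4 (-0.50) passed in addition. The share of all genes called with the block was not counted. Pfkp, at 0.58 ± 0.20 (adjusted p = 0.0522) without the block, lay just outside the threshold, and passed by DESeq2 (0.67, adjusted p = 0.0181).

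**Figure D4:**
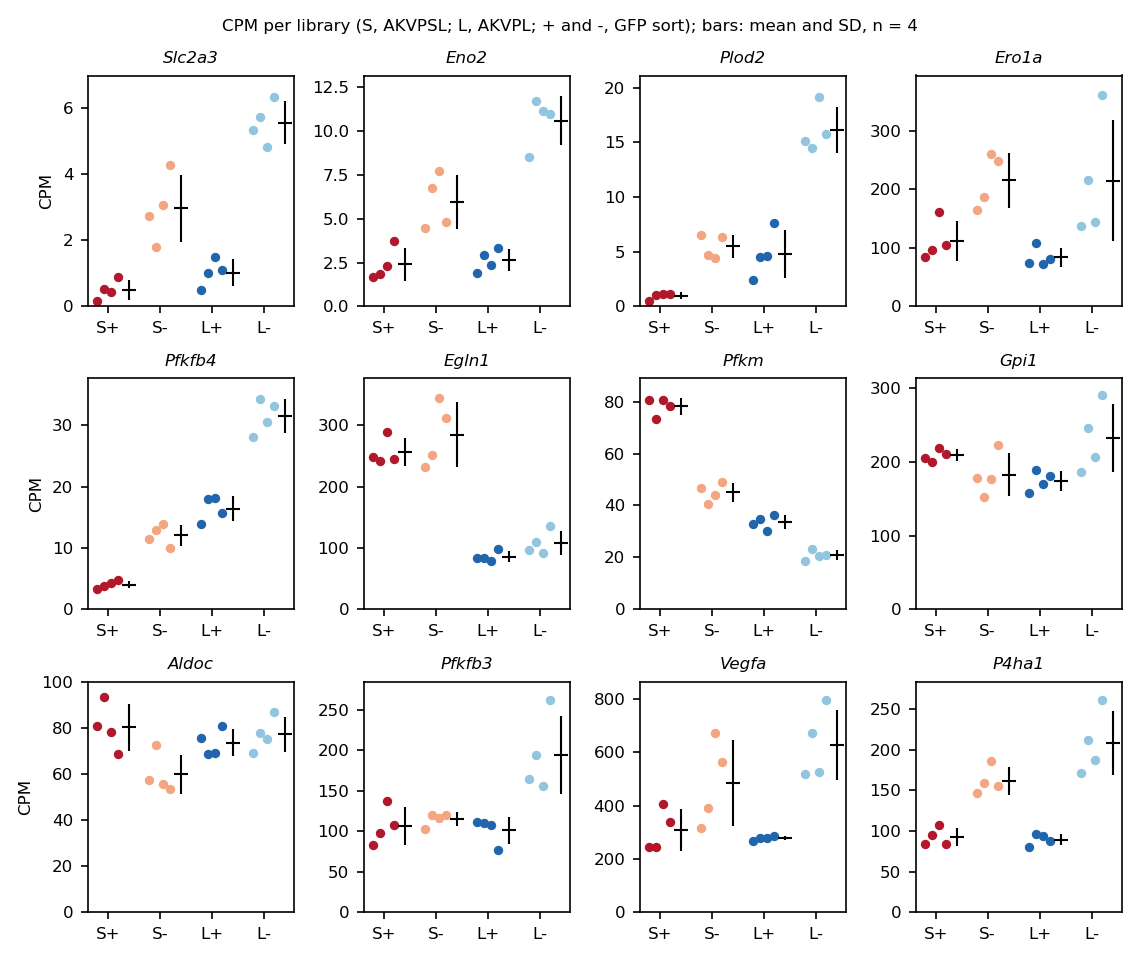
CPM of 12 members in each library (points) by group, with the mean and SD (bars, n = 4); S and L stand for AKVPSL and AKVPL, and + and - for the GFP sort. Egln1 splits by genotype, Ero1a by sort, and Plod2 and Pfkfb4 by both. Slc2a3 splits by sort, but its GFP+ groups overlap between the genotypes.

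Where several genes code for the same step, the balance between them differed between groups. The share of Pfkm in the summed RPKM of Pfkl, Pfkm and Pfkp was 11.9 ± 1.09% in AKVPSL GFP+ and 7.51 ± 1.75% in AKVPSL GFP- cells, and 8.81 ± 0.401% in AKVPL GFP+ and 5.30 ± 0.715% in AKVPL GFP- cells (SD, n = 4 each). GFP+ and GFP- libraries did not overlap in this share in either genotype. Pfkl, the liver-type gene, held 74.4% to 82.9% in all 16 libraries. Pfkp held 11.4 ± 0.861% in AKVPSL GFP+ and 13.7 ± 2.30% in AKVPSL GFP-, and 9.54 ± 0.914% in AKVPL GFP+ and 15.0 ± 0.953% in AKVPL GFP- cells.

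Pfkfb4 made up 4.03 ± 0.540% of the summed RPKM of Pfkfb3 and Pfkfb4 in AKVPSL GFP+, 10.3 ± 1.44% in AKVPSL GFP-, 15.2 ± 2.53% in AKVPL GFP+ and 15.4 ± 2.31% in AKVPL GFP- cells. AKVPSL GFP+ libraries lay apart from all others, at 3.31% to 4.60%. P4ha1 made up 37.2 ± 2.37%, 39.7 ± 1.88%, 36.9 ± 2.28% and 50.9 ± 1.54% of P4ha1 and P4ha2 in the same order, and the AKVPL GFP- libraries lay apart, at 48.7% to 52.2%. Egln1 made up 40.2 ± 3.46% of Egln1 and Egln3 in AKVPSL GFP+ and 30.3 ± 3.82% in AKVPL GFP+ cells, and 38.5 ± 2.77% in AKVPSL GFP- and 27.7 ± 3.34% in AKVPL GFP- cells. Eno2 held at most 3.31% of the 2 enolases, Slc2a3 at most 0.536% of the 2 glucose transporters and Aldoc at most 8.75% of the 2 aldolases in any library. These shares are descriptions with no test.

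**Figure D5:**
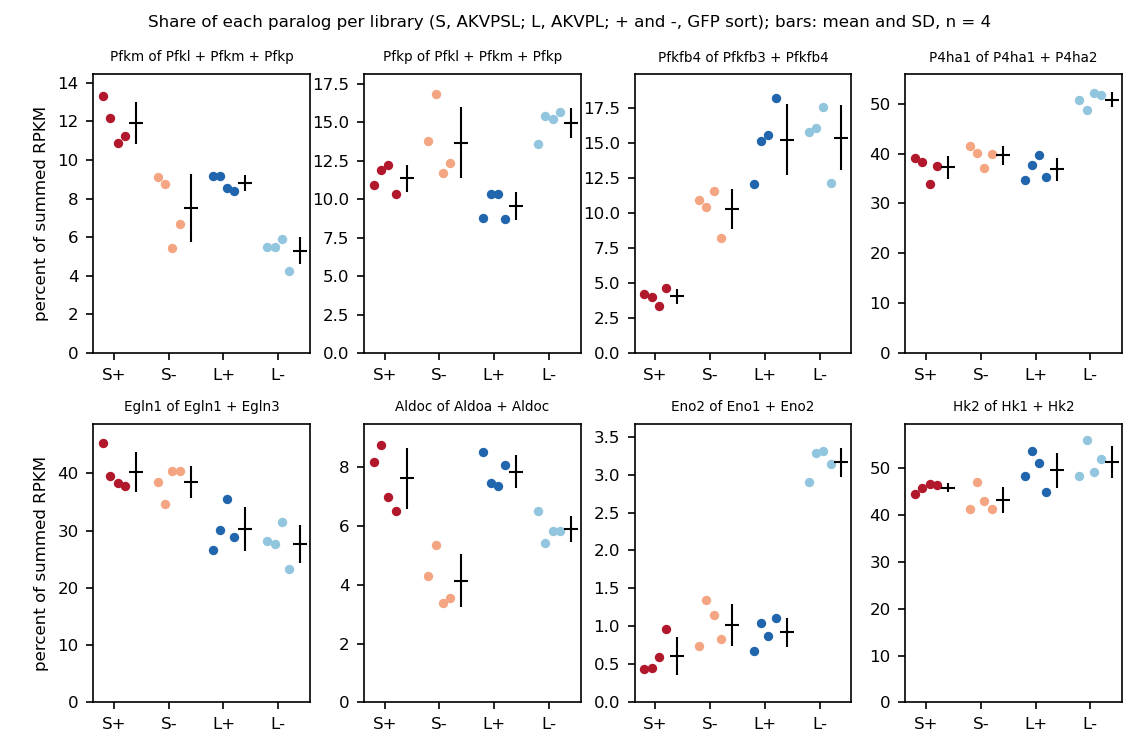
Share of 1 paralog in the summed RPKM of its family, in percent (vertical axis), in each library (points) by group, with mean and SD (bars, n = 4); S and L stand for AKVPSL and AKVPL, and + and - for the GFP sort. The Pfkfb4 share is lowest in AKVPSL GFP+ at 3.31% to 4.60%, and the P4ha1 share is highest in AKVPL GFP- at 48.7% to 52.2%.

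Single libraries stood at the top or bottom of their group for many of the 35 genes. AKVPL GFP- replicate 4, the library with the lowest total count, was the highest of its group for 26 of 35 members, with a median deviation of 0.28 (log2) from the group mean. AKVPL GFP+ replicate 4 was the highest for 18, AKVPSL GFP+ replicate 3 for 22 and AKVPSL GFP- replicate 3 for 21. At the low end, AKVPL GFP- replicate 1 was lowest for 23 members and AKVPSL GFP+ replicate 1 for 22. Without AKVPL GFP- replicate 4, 15 members fell and 2 rose in AKVPL GFP+ cells. The share of all genes called without this library was not counted.

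Genes of the same pathways outside the 35 were counted in lists of their own. Of 8 HIF pathway genes, 5 rose in AKVPSL GFP+ against AKVPL GFP+ cells, and 5 rose and 1 fell in GFP- cells, beside 24.9% and 32.0% of all genes that rose. The count that fell in GFP+ cells was 0 by edgeR, at an unadjusted p below 0.05 too, and 0 by DESeq2. Hif1a, the oxygen-regulated subunit, rose by 0.87 in GFP+ and by 0.31 in GFP- cells, Epas1, its relative HIF-2 alpha, by 1.45 and 0.38, and Hif3a, a further relative, by 3.52 and 3.79 on the log2 scale. Vhl, which marks the HIF subunits for destruction, rose by 0.66 and 0.39. Of the 8 genes, 5 had all AKVPSL libraries above all AKVPL libraries in GFP+ cells, beside 25.0% of all genes. In GFP- cells this held for 1 of the 8, beside 27.3%, and 0 lay wholly below in either sort. Epithelial scaling ended GFP- calls of some members, such as Pfkl, at 0.65 before and 0.36 after. Values of these 8 genes with that scaling are not given, so their smaller GFP- rises are less certain. With the sort, 4 of the 8 rose and 1 fell in AKVPSL, beside 22.4% and 24.6% of all genes, and 2 rose and 2 fell in AKVPL, beside 22.6% and 16.5%.

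Of 26 other hypoxia targets, 12 fell and 1 rose with the sort in AKVPSL, beside 24.6% and 22.4% of all genes, and 11 fell and 1 rose in AKVPL, beside 16.5% and 22.6%. Angptl4, an inhibitor of lipoprotein lipase, had log2 fold changes of -2.47 in AKVPSL and -2.61 in AKVPL, and Nos2, the inducible nitric oxide synthase, of -2.07 and -2.41. Car9, a carbonic anhydrase often used as a hypoxia marker, had log2 fold changes of -0.07 and 0.04 with the sort that did not pass, and fell between genotypes by 1.37 in GFP+ and by 1.25 in GFP- cells. Between genotypes 11 of the 26 rose and 4 fell in GFP+ cells, beside 24.9% and 28.1% of all genes, and 10 rose and 8 fell in GFP- cells, near the 32.0% and 30.7% of all genes. Ppp1r3c, a glycogen-targeting subunit of protein phosphatase, fell by 3.46 in GFP+ and fell by 4.42 in GFP- cells.

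Of 22 other glycolysis genes tested out of 24, 5 rose and 1 fell with the sort in AKVPSL, and 6 rose and 2 fell in AKVPL. The counts that rose are near the 22.4% and 22.6% of all genes, and 24.6% and 16.5% of all genes fell. Between genotypes 4 of the 22 rose and 6 fell in GFP+ cells, beside 24.9% and 28.1% of all genes. In GFP- cells 5 rose and 6 fell, beside 32.0% and 30.7%. The rise of the 16 listed enzymes was thus not seen in this list. Pklr, the liver pyruvate kinase, rose by 1.31 in AKVPSL and 0.81 in AKVPL GFP+ cells, and the hexokinase relative Hkdc1 by 1.89 and 0.96. Both fell between genotypes, with log2 fold changes of -1.07 in GFP+ and -1.58 in GFP- cells for Pklr and of -4.17 and -5.10 for Hkdc1. Of 7 pentose phosphate genes, 4 rose in AKVPSL GFP- against AKVPL GFP- cells, beside 32.0% of all genes, including Tkt (0.66) and G6pdx (0.53). In GFP+ cells the count was 0 in both directions by edgeR and by DESeq2, with 1 lower at an unadjusted p below 0.05 by either tool. With the sort, 3 of the 7 fell and 0 rose in AKVPSL, beside 24.6% and 22.4% of all genes. In AKVPL 1 rose and 0 fell, beside 22.6% and 16.5%. Of 5 gluconeogenesis genes tested, 2 rose and 0 fell with the sort in AKVPSL, and 3 and 0 in AKVPL. Between genotypes 3 of the 5 rose and 1 fell in each sort, beside the same shares of all genes as above.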

How the data were processed

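RNA was extracted on a micro column kit after sorting by FACS, per the labels' protocols, and sequenced as 16 libraries. Reads were aligned with GSNAP to GRCm38, per the submitters' processing notes. The deposited files hold counts of uniquely aligned reads per NCBI Gene model and size-factor-adjusted RPKM, per the file headers. No source used here gives the strand setting, annotation release or gene lengths. Total counts ran from 10.88 M to 41.60 M per library.

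Groups and replicate numbers were taken from the sample titles. Counts were tested with edgeR 4.0.16 in R 4.3.3, with filterByExpr, TMM factors, a quasi-likelihood F test with robust dispersion, 1 mean per group over all libraries (12 residual degrees of freedom) and Benjamini-Hochberg adjustment over 18072 genes, at a threshold of 0.05. The SE of a log2 fold change was its size divided by the square root of F. The fit was also run on simulated counts with known changes. These were drawn as independent libraries with the spread of the fit itself, a simpler setting than these data, so they check the code only. DESeq2 1.42.0, limma 3.58.1 on log2(RPKM + 1), other scalings and filters, a replicate block and each library left out were alternatives. The labels do not say whether libraries come from separate mice, so a p-value reflects only how libraries of a group vary, and that variation may be technical. Every pair of replicates differed by more than counting noise (chi-square per degree of freedom of 9.75 or more).

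Same-numbered GFP+ and GFP- libraries of a genotype carry the same number in their titles, and their deviations from the group means correlated at 0.103 to 0.366 in every pair, so the numbers were taken to pair them. Differently numbered pairs within a genotype ran from -0.447 to 0.380, so some correlated more than same-numbered pairs. The main edgeR tests used no block and so left this pairing out. With the replicate number as a block, 15 calls of members were added and 0 ended, those between genotypes included. Between genotypes same-numbered libraries correlated at -0.039 to 0.279, and the numbers were not taken to pair them.

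The members, lists and tests were chosen with earlier results of these data known. Given with every library were the 4 members past the threshold with the largest change in each comparison between groups, and the 4 with the smallest adjusted p in the difference of sort effects. Vegfa and Tpi1 were added after their values were seen. From each other list, the 3 genes past the threshold with the largest change per comparison could be named. Shared sequence was counted as 50-base stretches of GENCODE M21 transcripts.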

Additional observations from a re-analysis of the deposited data

Results flagged for a closer look

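Within groups of 4, 1 library lay far from the other 3 in 7 of 140 tests of a member in a group, by Dixon's 95% criterion on the gap over the range, and chance gives about 1 in 20. Slc2a1 stood at 399.8 CPM in AKVPSL GFP+ replicate 3, against 325 to 334 CPM in the others. Egln1 stood at 289 CPM in the same library, against 241 to 248 CPM. Pgk1 stood at 63.7 CPM in AKVPSL GFP+ replicate 2, against 49.1 to 49.9 CPM, and Plod2 at 0.495 CPM in AKVPSL GFP+ replicate 1, against 1.07 to 1.17 CPM. Gapdh stood at 15.3 CPM in AKVPSL GFP- replicate 4, against 14.1 to 14.3 CPM. In AKVPL GFP+ replicate 4, Slc16a3 stood at 176 CPM, against 138 to 144 CPM in the others, and Pfkfb3 at 76.8 CPM, against 107 to 111 CPM.

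The sort effect in AKVPSL minus that in AKVPL passed the edgeR test for 4 members. The differences on the log2 scale were 0.61 for Gpi1, 0.49 for Aldoc, 0.83 for Pfkfb3 and -0.64 for Pfkfb4.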

How the results depend on the processing

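No member changed direction past the threshold under any alternative run. Shares of all genes called were counted for the main edgeR tests only, so the member counts of the alternatives have none beside them. The count of members whose sort effect differed between genotypes, 3 higher and 1 lower, was 5 higher by DESeq2, 5 higher and 0 lower on log2(RPKM + 1) by limma, 14 higher and 0 lower with epithelial scaling, 0 lower with DESeq2 size factors and 0 lower with no filter on low counts. With the replicate number as a block it was 7 higher and 2 lower, and the block moved no other count by over 1.5 times. Between genotypes, which the numbers were not taken to pair, a block on the number alone added calls in GFP- cells for Vegfa (-0.41), Bnip3 (0.54) and Pgam1 (0.55). Epithelial scaling gave 31 members lower with the sort in AKVPL and 8 higher between genotypes in GFP- cells. The cause was not tested. With each library left out in turn, members lower with the sort ran from 15 to 26 in AKVPL and from 15 to 21 in AKVPSL, and members higher from 1 to 2 and from 2 to 3. Between genotypes they ran from 16 to 18 higher and 2 to 3 lower in GFP+ cells, and from 12 to 20 higher and 6 to 10 lower in GFP- cells. The difference of sort effects gave 1 to 4 higher and 0 to 2 lower. It gave 1 higher without AKVPL GFP+ replicate 1 or AKVPL GFP- replicate 4, and 0 lower without AKVPSL GFP+ replicate 1 or 2, AKVPSL GFP- replicate 3, AKVPL GFP+ replicate 2 or 3 or AKVPL GFP- replicate 1. Without AKVPSL GFP- replicate 2 it gave 2 lower, with Eno1 at -0.43. A fit of the compared groups alone was not run for that difference. Slc2a3, Plod2, Eno2, Pgam1 and Adm rest on few counts, which limits their precision. Pfkfb4 was low in AKVPSL GFP+ cells, at 3.34 to 4.77 CPM, but its SE was 0.14 or 0.15 in the comparisons between groups.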
